A study of Rattus norvegicus with 20 samples.

Results

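The comparison described here set synaptoneurosomes against whole homogenate in the ventral hippocampus of rats that had received a microRNA mimic. Synaptoneurosomes are a tissue fraction enriched in pinched-off presynaptic endings that still carry the postsynaptic membrane, and homogenate is the tissue before fractionation. The members were chosen by label: the 5 arrays titled as synaptoneurosome mimic and the 5 titled as homogenate mimic, together 10 of the 20 arrays of the series. Each array gave values for 68842 probe sets, of which 23446 carried exactly 1 gene symbol. The brightest of these per gene stood for 22093 genes, and 15465 remained after the dimmest 30% were left out. The comparison asks which transcripts were relatively more or less abundant in the synaptic fraction of mimic-injected animals.

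The animals were adult male Sprague-Dawley rats aged 2 months. The mimic group received 200 pmol of a miR-17-5p mimic in 1.5 µl of water on both sides of the ventral hippocampus. The control group received a scrambled small RNA instead. Its 5 synaptoneurosome and 5 homogenate arrays entered the same fit, so they contribute to the estimate of the spread behind every p-value and to the choice of probe sets, and their own difference is given in the last comparison. Both conditions shared the surgery and the analgesic ketoprofen, and each held 11 to 13 animals. The time from injection to dissection is not given in the sources used here. Labelling started from 100 ng of total RNA for every array. Whether each of the 5 arrays in a group stands for a different animal is not stated in the labels. The p-values below therefore reflect the array-to-array spread alone, part of which may be technical.

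The labels describe a different RNA extraction for each fraction. Homogenate RNA was bound to and eluted from a silica spin column after addition of ethanol, whereas synaptoneurosome RNA was precipitated with isopropanol and glycogen. Each method served 1 fraction, so fraction and extraction cannot be told apart in any result below. In bulk RNA, fewer cells of a type and less RNA per cell cannot be told apart either.

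Neurons hold part of their messenger RNA far from the cell body, in dendrites and axons, where it can be translated near synapses. Fractions prepared from synapses are used to find the transcripts of this local pool, and they can also hold fine processes of astrocytes. MicroRNAs guide silencing complexes to messenger RNAs by pairing with a seed near their 5′ end, and the miR-17 family is known for targeting cell cycle, autophagy and growth factor transcripts. The injected mimic carries the sequence of miR-17-5p, shown here so that its seed can be compared with those of other microRNAs described below. The mature sequence is from RefSeq (GRCr8), with the seed, bases 2 to 8, in capitals.
rno-miR-17-5p: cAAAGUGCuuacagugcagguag
It is annotated at chr15:98587861-98587883 on the plus strand, within the precursor gene Mir17, and the table lists an identical mature sequence at chrX:137343615-137343637 on the minus strand, within Mir106a. The precursor gene Mir17 itself was among the dim genes that were not tested. Its mean log2 level was 4.65 in homogenate mimic and 4.66 in synaptoneurosome mimic. A mimic is a mature duplex and not a precursor, so this probe set does not measure the injected RNA.

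Homogenate arrays resembled one another closely, with pairwise Pearson r across genes from 0.9934 to 0.998. Synaptoneurosome arrays were more varied, with r from 0.9712 to 0.9965, and the median SD of a gene was 0.169 log2 units against 0.114 in homogenate. Synaptoneurosome mimic 5 stood apart: it scored 54.2 on the first component of the deviations from the group means, which held 58.8% of their variance, and the other 9 arrays scored from -19.1 to 5.19. Values without this array are given beside the groups it moved most. Homogenate and synaptoneurosome arrays with the same replicate number deviated together, with r from 0.102 to 0.354 in the 5 pairs. A fit with the replicate number as a block was therefore run, and its counts are given beside the groups whose counts it moved by over 1.5 times.

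Of the 15465 genes, 6453 (41.7%) passed the test between fractions in mimic rats (limma, adjusted p below 0.05 after Benjamini-Hochberg). Of these, 1697 genes (11%) were higher in synaptoneurosomes and 4756 (30.8%) were lower. Most of the differences were small: 3435 of the calls, or 53.2%, were under 0.5 log2 units. A difference of at least 2-fold was found for 198 genes upward (1.28%) and 369 downward (2.39%). Against a null difference of 0.5 log2 units (treat in limma), 121 genes (0.782%) were higher and 406 (2.63%) lower. The 5 arrays of each fraction did not overlap for 1098 genes upward (7.1%) and 3921 downward (25.4%).

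The split into higher and lower genes depended on how arrays were scaled to one another. The median log2 difference of the tested genes was -0.08 in the values as deposited. It was 0.14 when the deposited scale was replaced by one in which each array's median over the tested genes was set to 0, -0.15 with array medians over all probe sets set to 0, and -0.00075 after quantile scaling of the gene values. The share of calls that were higher was 26.3% as deposited, 41.6% after quantile scaling (2127 genes, 13.8%, against 2982, 19.3%), 15.7% with array medians set to 0, and 69% with the median of tested genes set to 0. Under all 4 scalings, 970 genes passed as higher and 2247 as lower, and 16 genes passed in opposite directions under some pair of scalings. Groups of genes are therefore read against the median of -0.08 and the shares of 11% higher and 30.8% lower over all genes. The scalings that turn the sign of a group's median are named beside it. The lists were chosen with earlier results of these data known, so their counts and medians are a description and no independent test.

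The difference also varied with signal level. With the tested genes split by mean level into 5 bins of near-equal size, the dimmest bin had a median log2 difference of 0.08, with 599 higher and 199 lower, and the middle bin had -0.22, with 162 higher and 1365 lower. Olfactory receptors, chemosensory receptors of the nasal epithelium that lie near background in this tissue, show the pattern among dim probe sets. Only 119 of 1128 passed the filter on dim genes, which uses all 20 arrays, and 28 of the 119 were above its limit in synaptoneurosomes of mimic rats but below it in homogenate. Such members could pass only through one fraction, so the counts are given as a description. Of the 119, 48 were higher and none lower. Of the 88 above the limit in both fractions, 33 were higher. Their mean log2 level was 5.09 to 5.20 across homogenate arrays and 5.36 to 5.41 across synaptoneurosome arrays. After quantile scaling 23 were higher.

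**Figure D1:**
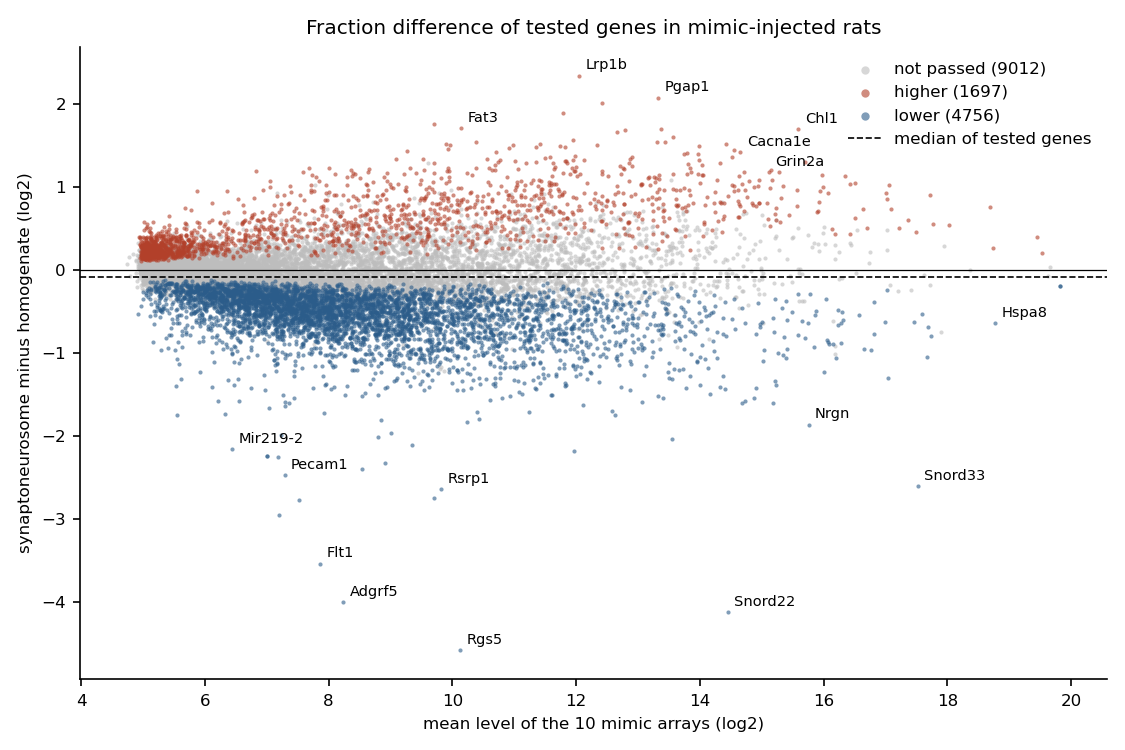
Log2 difference of synaptoneurosome minus homogenate in mimic rats against the mean log2 level of the 10 arrays, 1 point per tested gene; red points passed as higher (1697), blue points as lower (4756) and grey points did not pass. The falls of Rgs5 and Snord22 lie beyond -4, the largest rises lie near 2, and the dashed line marks the median of -0.08.

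The largest rise was that of Lrp1b. Lrp1b, an endocytic receptor of the LDL receptor family, had log2 levels of 10.58, 10.91, 11.11, 11.05 and 10.75 in homogenate mimic 1 to 5 and of 12.89, 12.95, 13.68, 13.66 and 12.95 in synaptoneurosome mimic 1 to 5. Every synaptoneurosome array was above every homogenate array, and the log2 difference was 2.35 ± 0.19 (SE, n = 5 against 5, limma adjusted p = 6.8e-08), a 5.08-fold rise. Pgap1, an enzyme that remodels the lipid anchor of GPI-linked proteins, rose by 2.08 ± 0.17 on the log2 scale, from 12.16 to 12.55 across homogenate arrays to 13.86 to 14.88 across synaptoneurosome arrays. Tenm1 and Tenm2, teneurins that bind latrophilins across the synaptic cleft, rose by 1.89 ± 0.18 and 1.61 ± 0.13. The giant cadherins Fat3 and Fat4 rose by 1.71 ± 0.12 and 1.69 ± 0.17, and both probe sets of Fat4 moved by a like amount (the other by 1.78).

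Chl1, a close homolog of the cell adhesion molecule L1, was bright in both fractions. Its log2 level ran from 14.55 to 14.88 in homogenate and from 16.21 to 16.67 in synaptoneurosomes, a difference of 1.70 ± 0.13 (adjusted p = 2.5e-08). The secreted guidance ligand Slit2 rose by 1.66 ± 0.21. Sema3e, a secreted semaphorin, rose by 2.02 ± 0.23, but its other, dimmer probe set differed by 0.17. Cacna1i, a pore subunit of T-type calcium channels, rose by 1.57 ± 0.14. The 2 remaining members were Dio2, the deiodinase by which astrocytes activate thyroid hormone (1.76 ± 0.23), and Rasl10b, a small GTPase of the Ras family (1.70 ± 0.29). Rasl10b was the one of the 12 in which synaptoneurosome mimic 5 lay close to homogenate, at 13.15 against 12.23 to 12.88 in homogenate and 14.25 to 14.88 in the other 4 synaptoneurosome arrays.

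**Figure D2:**
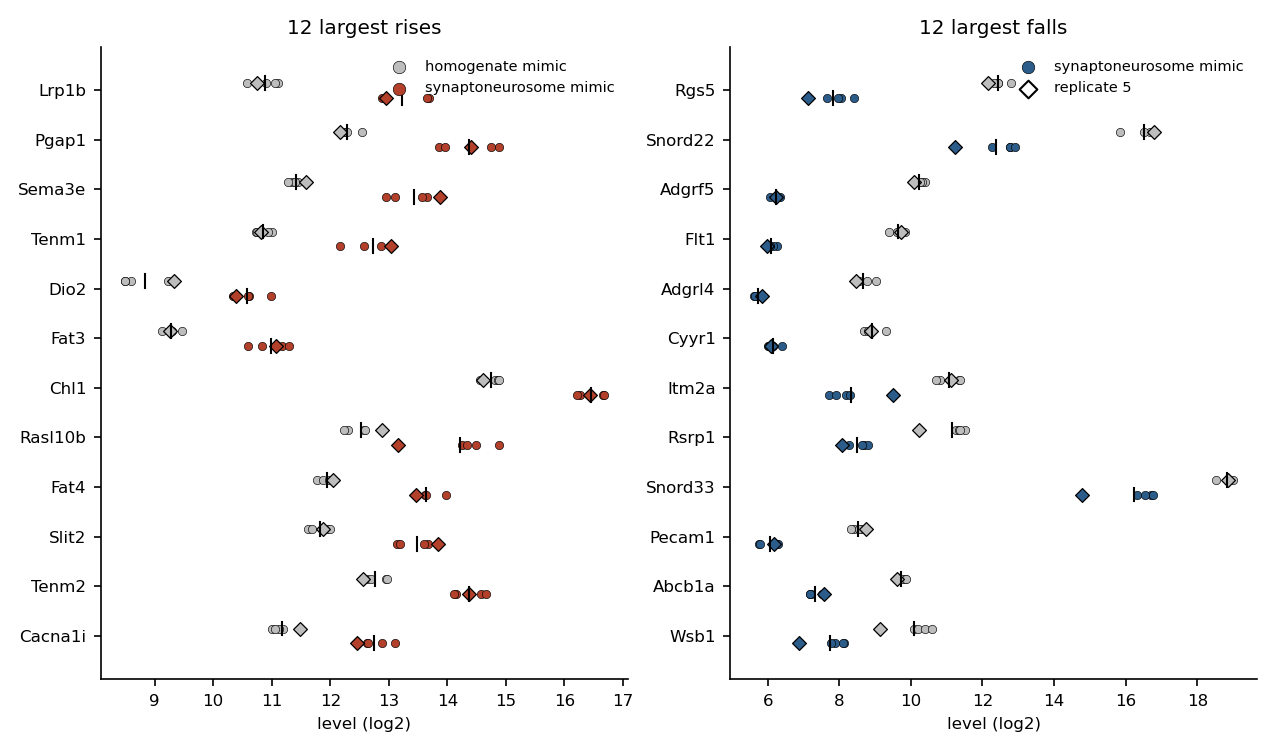
Log2 levels of the 12 genes with the largest rises (left) and the 12 with the largest falls (right) in each of the 5 homogenate mimic arrays (grey) and 5 synaptoneurosome mimic arrays (red or blue), with diamonds for replicate 5 and short vertical lines for group means. In each of the 24 genes the arrays of the fractions do not overlap, as the rule that chose them required.

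Most listed genes of synaptic adhesion were higher. Of 44 listed adhesion proteins of the synaptic cleft, 41 were tested, 31 were higher, none was lower, and the median log2 difference was 0.85 against -0.08 over all genes. The list's mean level lay between 11.85 and 11.93 on the log2 scale in the homogenate arrays and between 12.30 and 13.37 in the synaptoneurosome arrays. Cntn4, a GPI-anchored contactin, rose by 1.54 ± 0.18. Nlgn1, the postsynaptic partner of neurexins at excitatory synapses, had log2 levels of 11.83, 11.79, 11.83, 12.04 and 11.60 in homogenate mimic 1 to 5 and 12.57, 12.27, 12.49, 12.47 and 13.37 in synaptoneurosome mimic 1 to 5. All 5 synaptoneurosome arrays exceeded the homogenate arrays, the fifth by most, and the difference was 0.82 ± 0.22 (adjusted p = 0.0057). Without synaptoneurosome mimic 5, 25 of the 41 were higher and none lower, with a median of 0.64. With synaptoneurosome control 4 and control 5 left out as well, 33 were higher and 1 lower.

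Protocadherins, cadherins that give neurons a cell-surface identity, moved alike. Of 32 tested, 28 were higher and 1 was lower, with a median log2 difference of 0.83. Pcdhga4 rose by 1.43 ± 0.27 and Pcdhb20 by 1.17, whereas Pcdhgb1 fell by 0.36. Many members of the clustered protocadherins share their 3′ exons, so their probe sets can read overlapping transcripts and the members are not independent. Leaving out synaptoneurosome mimic 5 left 24 higher and a median of 0.69.

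Among pore subunits of sodium, calcium and HCN channels, 14 of 15 tested genes were higher and none was lower, with a median log2 difference of 1.06. Cacna1e, the R-type calcium channel, had log2 levels from 13.79 to 14.04 in homogenate and from 15.18 to 15.65 in synaptoneurosomes, a difference of 1.42 ± 0.11 (adjusted p = 3.3e-08). Cacna1b, the N-type channel that triggers transmitter release, rose by 1.14 ± 0.17. The axonal sodium channels Scn1a and Scn2a rose by 1.26 ± 0.22 and 1.09 ± 0.16. The homogenate arrays of Scn2a were nearly alike at 14.53 to 14.65, and its synaptoneurosome arrays ran from 15.37 to 16.28. Without synaptoneurosome mimic 5, 13 of the 15 were higher and the median was 0.95.

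Potassium channels and their auxiliary subunits were more mixed. Of 69 tested, 14 (20.3%) were higher and 3 (4.35%) lower, beside 11% and 30.8% over all genes. Of the 14, 1 lay below the limit of the filter on dim genes in homogenate, so it entered the test through the synaptoneurosome arrays. The median log2 difference was 0.23 (0.08 without synaptoneurosome mimic 5). The fit with the replicate block called 24 higher and 5 lower, and quantile scaling called 24 and 4. Kcnt2, a sodium-activated potassium channel, rose by 1.31 ± 0.19, and Kcnh7, a channel of the ERG family, rose by 1.09. Among the 3 that fell, Kcnab1, a cytoplasmic beta subunit, fell by 1.08 and Kcnip4, a cytoplasmic calcium-binding subunit of A-type channels, fell by 1.03.

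Receptors for transmitters were higher in part, and none tested was lower when all arrays were used. Of 23 ionotropic glutamate receptor genes, which form AMPA, NMDA and kainate receptors, 9 were higher and the median log2 difference was 0.44. Without synaptoneurosome mimic 5, 9 were again higher and the median was 0.22. Grin2a, an NMDA receptor subunit, had log2 levels of 14.40, 14.49, 14.61, 14.44 and 14.70 in homogenate mimic 1 to 5 and of 15.82, 15.44, 15.66, 15.68 and 15.95 in synaptoneurosome mimic 1 to 5. Every synaptoneurosome array was above every homogenate array, and the mean difference was 1.18 ± 0.14 (adjusted p = 4.6e-06). Grin2b, the other main NMDA subunit of the forebrain, rose by 0.74 ± 0.12, and the AMPA receptor subunit Gria3 rose by 0.97 ± 0.17.

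Gria1, the AMPA subunit prominent in the hippocampus, did not pass. Its log2 difference was 0.43 ± 0.27 (adjusted p = 0.21), with 15.54 to 15.85 in synaptoneurosome mimic 1 to 4, 16.82 in synaptoneurosome mimic 5 and 15.42 to 15.66 in homogenate. Of 6 metabotropic glutamate receptors, 3 were higher: Grm3 by 1.29 ± 0.12, Grm7 by 0.93 ± 0.17 and Grm5 by 0.82 ± 0.22. Of 12 GABA receptor subunits, 3 were higher, or 5 with the replicate block, and the median was 0.29, or 0.13 without synaptoneurosome mimic 5. With synaptoneurosome mimic 5, synaptoneurosome control 4 and synaptoneurosome control 5 all left out, 4 were higher and 2 lower. Gabrg3 rose by 1.23 ± 0.22 and Gabra2 by 0.74 ± 0.19. Synaptoneurosome mimic 5 was the highest array for both.

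Receptors of monoamines and neuropeptides included 9 higher and no lower genes of 41, with a median log2 difference of 0.31. Without synaptoneurosome mimic 5 the count was again 9 and the median only 0.06, beside -0.08 over all genes. Htr2c, a serotonin receptor also abundant in the choroid plexus, rose by 1.55 ± 0.27, with 12.25 to 12.75 in homogenate and 13.57 to 14.57 in synaptoneurosomes on the log2 scale. Npy2r, a neuropeptide Y receptor known on presynaptic terminals, rose by 1.46 ± 0.45 (adjusted p = 0.014), and without replicate 5 of both groups it no longer passed, at 1.12. Htr1a, a serotonin autoreceptor and postsynaptic receptor, was at 10.91, 10.99, 11.18 and 11.36 in synaptoneurosome mimic 1 to 4 and at 12.95 in the fifth, against 11.13 to 11.59 in homogenate. Its difference of 0.17 ± 0.38 did not pass.

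**Figure D3:**
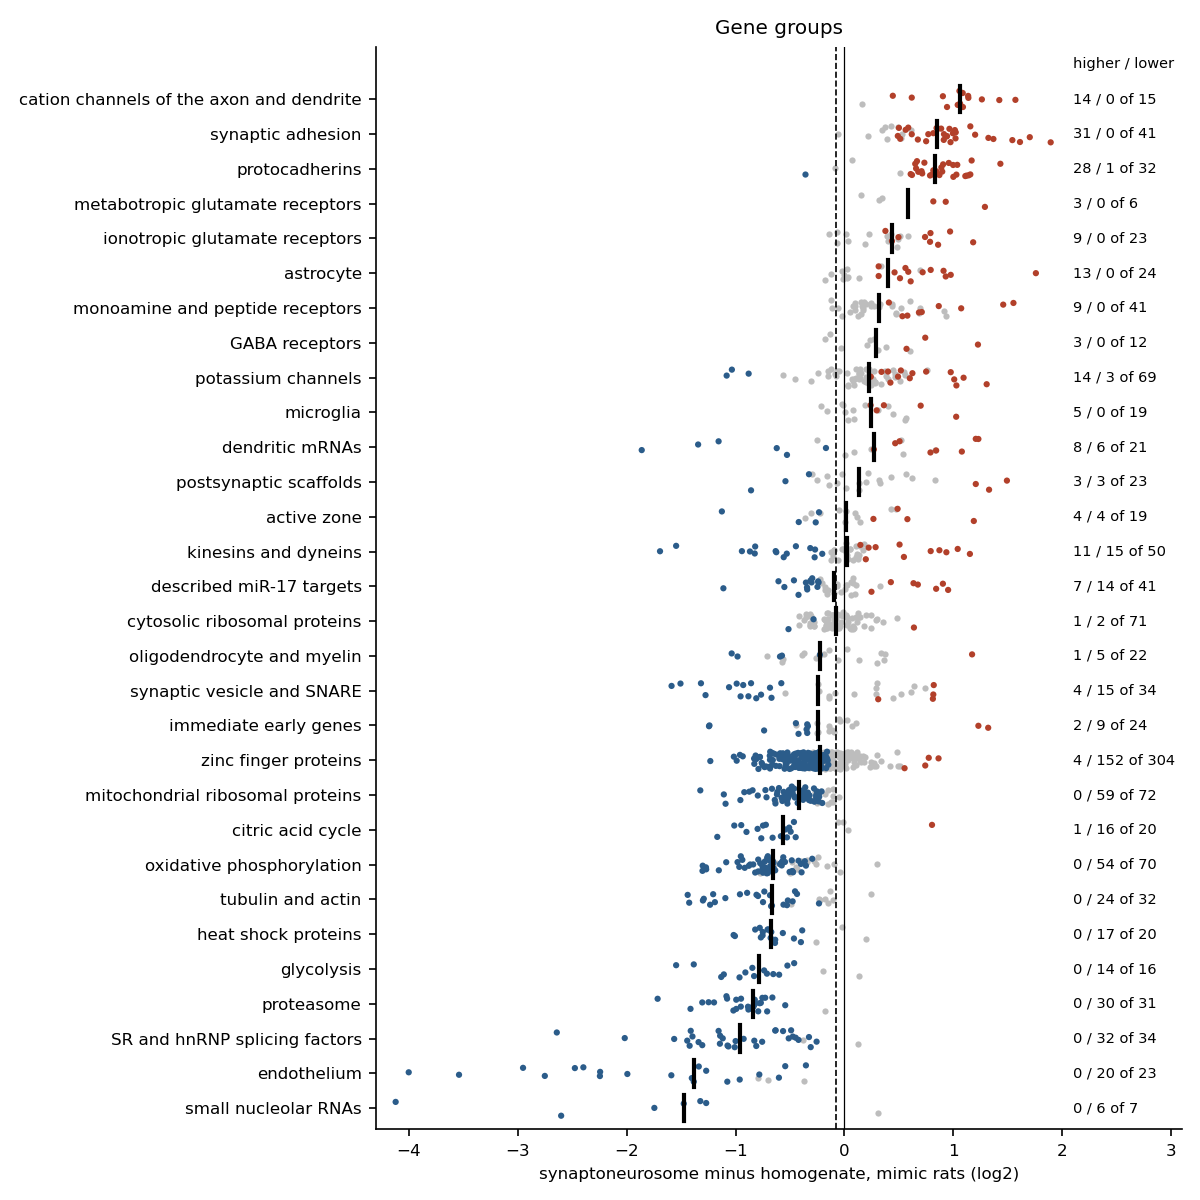
Log2 difference of synaptoneurosome minus homogenate in mimic rats for the tested members of 30 gene groups, 1 point per gene (red higher, blue lower, grey not passed), with black bars for group medians, a dashed line for the median of all tested genes (-0.08) and the number higher and lower at the right. Sodium, calcium and HCN channels and the adhesion groups have medians near 1, and potassium channels have a median of 0.23. Splicing factors, endothelial markers and small nucleolar RNAs have medians near or below -1.

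Scaffolds of the postsynaptic density had few calls when all arrays were used. Of 23 tested, 3 (13%) were higher and 3 (13%) lower, beside 11% and 30.8% over all genes. The lower share was thus below that over all genes. The median log2 difference was 0.14 beside -0.08 over all genes, and quantile scaling called 5 higher and 2 lower. The 3 that rose did so by more than 2-fold: Shank3 by 1.49 ± 0.32, Homer2 by 1.33 ± 0.26 and Shank1 by 1.21 ± 0.30, each encoding a protein that ties glutamate receptors to the actin cytoskeleton. Shank3 had log2 levels of 10.96, 11.08, 11.03, 10.85 and 11.44 in homogenate mimic 1 to 5 and of 12.58, 12.72, 12.93, 13.06 and 11.53 in synaptoneurosome mimic 1 to 5. Here the fifth synaptoneurosome array was close to homogenate, and the other 4 were more than 1 log2 unit above it. Baiap2, an actin regulator of dendritic spines, fell by 0.86 ± 0.14. Dlg4, the gene of PSD-95, differed by 0.20 ± 0.17 (adjusted p = 0.34).

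The scaffold count depended on single arrays. It was 8 higher and 2 lower without synaptoneurosome mimic 5, with a median of 0.24. The count was 11 higher and 3 lower without the 3 arrays that stood apart (synaptoneurosome mimic 5, synaptoneurosome control 4 and synaptoneurosome control 5). It was 6 and 3 without synaptoneurosome control 1 or control 5, and 5 and 3 without control 3, which enter through the shared estimate of the spread.

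Transcripts long described in dendrites went both ways. Of 21 tested, 8 (38.1%) were higher and 6 (28.6%) lower, beside 11% and 30.8% over all genes, with a median log2 difference of 0.27. Without synaptoneurosome mimic 5, 10 were higher and 5 lower, and without the 3 arrays that stood apart 13 and 5. Against the homogenate means, the list median was 0.21 to 0.38 in synaptoneurosome mimic 1 to 4 and -0.14 in the fifth. Camk2a, the kinase messenger RNA carried into dendrites by its 3′ untranslated region, was among the brightest genes and rose by 0.27 ± 0.08, from 18.54 to 18.66 in homogenate to 18.71 to 18.98 in synaptoneurosomes. Arc, an activity-induced messenger RNA translated in dendrites, rose by 1.23 ± 0.28 (adjusted p = 0.0017). Its log2 levels were 8.66, 8.55, 8.60, 8.74 and 8.94 in homogenate mimic 1 to 5 and 10.15, 9.91, 10.03, 10.42 and 9.13 in synaptoneurosome mimic 1 to 5. Map2, a dendritic microtubule protein, differed by 0.24 ± 0.10 and did not pass (adjusted p = 0.063).

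On the lower side, Nrgn, which encodes the calmodulin-binding postsynaptic protein neurogranin, fell by 1.86 ± 0.13 on the log2 scale. It had log2 levels from 16.57 to 16.99 in homogenate and from 14.74 to 15.08 in synaptoneurosomes, so the fractions were far apart. Rgs4, a regulator of G protein signalling, fell by 1.34 ± 0.35.

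Of 34 tested genes of synaptic vesicles and the fusion machinery, 15 (44.1%) were lower and 4 (11.8%) higher, beside 30.8% and 11% over all genes. The median log2 difference was -0.24, or -0.44 without synaptoneurosome mimic 5, and quantile scaling called 15 and 8. Rab3a, a vesicle GTPase, fell by 1.59 ± 0.23, Sncb, beta-synuclein, by 1.51 ± 0.12, and Cplx1, a complexin that clamps fusion, by 1.28. Snap25, a plasma membrane SNARE, had log2 levels from 17.92 to 18.15 in homogenate and from 17.18 to 17.65 in synaptoneurosomes, and fell by 0.68 ± 0.10 (adjusted p = 4.8e-05). Cplx2, the other main complexin of the forebrain, rose by 0.82 ± 0.21, and Sv2c, a vesicle glycoprotein, rose by 0.82. Syp, synaptophysin, differed by 0.08 ± 0.27 and did not pass.

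The active zone list, which holds scaffolds of the release site, had 4 higher (21.1%) and 4 lower (21.1%) of 19. The shares over all genes were 11% and 30.8%. The list's median of 0.02 turned negative with array medians set to 0 and was 0.10 without synaptoneurosome mimic 5. After quantile scaling 3 were higher and 2 lower. The large scaffold proteins bassoon and piccolo were both higher, Bsn by 0.58 ± 0.17 and Pclo by 0.49 ± 0.11, although Pclo did not pass after quantile scaling. Lin7a, a small adaptor of both sides of the synapse, fell by 1.13 ± 0.12, and its other probe set differed by -0.95.

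Motor proteins had calls in both directions. Of 50 kinesin and dynein genes, 11 (22%) were higher and 15 (30%) lower, beside 11% and 30.8% over all genes. The lower share was thus near that over all genes. The median of 0.02 turned negative with array medians set to 0. Kif5c, a heavy chain of conventional kinesin that carries cargo in dendrites and axons, rose by 1.15 ± 0.16, and Kif1a, which carries synaptic vesicle precursors, rose by 1.04. The dynein light chain Dynll1 had log2 levels from 11.26 to 12.02 in homogenate and from 9.85 to 10.27 in synaptoneurosomes, a fall of 1.55 ± 0.22 on the log2 scale.

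Genes of the proteasome and of glycolysis were lower in synaptoneurosomes. Of 31 proteasome subunits, 30 were lower, none was higher, and the median log2 difference was -0.84. Psmc2, an ATPase subunit of the regulatory particle, had log2 levels of 11.08, 11.07, 10.90, 12.12 and 11.11 in homogenate mimic 1 to 5 and of 9.42, 9.91, 9.40, 9.26 and 9.71 in synaptoneurosome mimic 1 to 5. It fell by 1.72 ± 0.27, with homogenate mimic 4 as the highest array by about 1 log2 unit, and Psma1, a core particle subunit, fell by 0.82 ± 0.19. Of 16 glycolytic enzymes, 14 were lower and none higher, with a median of -0.78. Eno2, the neuronal enolase, fell by 1.55 ± 0.19, Pgam1, phosphoglycerate mutase, by 1.38, and Hk1, the hexokinase bound to mitochondria, by 0.46 ± 0.11. Hk1 did not pass with the median of tested genes set to 0.

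Genes of the respiratory chain, the mitochondrial ribosome and the citric acid cycle had the same direction. Of 70 subunits of oxidative phosphorylation, 54 were lower and none higher, with a median log2 difference of -0.66. Cytochrome c, encoded by Cycs, fell by 1.30 ± 0.16, and Cox7b, a cytochrome c oxidase subunit, by 1.30 ± 0.22. Ndufs1, a large subunit of complex I, was near the threshold at -0.36 ± 0.14 (adjusted p = 0.04), and its adjusted p rose to 0.11 when single arrays were left out. Of 72 mitochondrial ribosomal proteins, 59 were lower and none higher, with a median of -0.41, and Mrpl17 fell by 1.32 ± 0.12. Of 20 genes of the citric acid cycle, 16 were lower, among them Idh3g, an isocitrate dehydrogenase subunit (-1.17 ± 0.12). The 1 that rose was Suclg2, the GTP-specific subunit of succinyl-CoA ligase, at 0.80 ± 0.25.

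The cytosolic ribosome did not share these falls. Of 71 ribosomal protein genes, 1 was higher and 2 were lower, and the median log2 difference of -0.08 equalled that of all genes. The sign of that median turned after quantile scaling, when 5 were higher and none lower, with the median of tested genes set to 0 and without replicate 5 of both mimic groups. Rplp0, a stalk protein of the large subunit, rose by 0.64 ± 0.19, Rpl27 fell by 0.51 ± 0.13, and Rps6, the phosphoprotein of the small subunit, differed by -0.42 ± 0.26 and did not pass. The second gene that fell, Rpl24, was near the threshold (-0.28, adjusted p = 0.041). Leaving out any 1 of 8 arrays reduced the lower genes to 1, and leaving out synaptoneurosome control 4 gave 3 higher and 4 lower.

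Subunits of the cytoskeleton were lower as well, with 24 of 32 lower, none higher and a median log2 difference of -0.67. The beta tubulin Tubb2a fell by 1.44 ± 0.19 and the neuronal intermediate filament alpha-internexin, Ina, by 1.43 ± 0.19. Tuba1a, the main neuronal alpha tubulin, differed by -0.24 ± 0.11 and did not pass. Of 20 cytosolic heat shock and chaperonin genes, 17 were lower and none higher, with a median of -0.68. The constitutive chaperone Hspa8 fell by 0.64 ± 0.16, with the same value in its other probe set, and Dnajb4, an Hsp40 co-chaperone, by 1.02 ± 0.09.

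Chaperones and import factors of the endoplasmic reticulum behaved differently. Of 38 tested, 8 (21.1%) were higher and 6 (15.8%) lower, beside 11% and 30.8% over all genes. The median log2 difference of 0.05 turned negative with array medians set to 0. It was also negative without synaptoneurosome mimic 5 (-0.16, with 7 higher and 7 lower) and without the 3 arrays that stood apart (-0.16, with 8 higher and 16 lower). Hspa5, the main chaperone of this compartment (BiP), had log2 levels from 12.62 to 13.10 in homogenate and from 13.23 to 14.48 in synaptoneurosomes, a rise of 1.15 ± 0.18 (adjusted p = 7e-05). Stt3b, a catalytic subunit of oligosaccharyltransferase, rose by 1.03 ± 0.23, and Hsp90b1, the chaperone GRP94, by 0.97 ± 0.15. In contrast, Srp72, a protein of the signal recognition particle, fell by 0.75 ± 0.08, and Sec61g, a small subunit of the translocon, fell by 0.72. Sec61a1, the channel subunit, differed by 0.42 ± 0.20 (adjusted p = 0.098, or 0.032 with the replicate block).

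Splicing factor genes were lower almost throughout. Of 34 splicing factors of the SR and hnRNP families and their partners, 32 were lower and none higher, with a median log2 difference of -0.96, and 17 of them fell at least 2-fold. Rsrp1, an arginine and serine rich protein, had log2 levels of 11.25, 11.52, 11.35, 11.36 and 10.23 in homogenate mimic 1 to 5 and of 8.70, 8.81, 8.63, 8.28 and 8.08 in synaptoneurosome mimic 1 to 5. It fell by 2.64 ± 0.25 (adjusted p = 3.4e-07), and replicate 5 was the lowest array of each fraction. Clk1, a kinase of SR proteins, fell by 2.02 ± 0.38, Srsf5 by 1.56 ± 0.18, Snrnp70, a protein of the U1 particle, by 1.44, and Srsf1 by 0.33 ± 0.07. Srsf1 did not pass after quantile scaling.

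Replicate 5 was also the lowest array of both fractions for Clk1, Srsf5, Wsb1 and Gas5. Wsb1, a ubiquitin ligase adaptor with highly alternative splicing, was at 9.14 in homogenate mimic 5 against 10.08 to 10.60 in the other 4, and at 6.87 in synaptoneurosome mimic 5 against 7.78 to 8.12. It fell by 2.33 ± 0.31 between fractions.

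All 4 tested noncoding RNAs of the nuclear list were lower. Gas5, a host gene of small nucleolar RNAs, fell by 1.64 ± 0.19, Snhg11 by 1.40 and the imprinted RNA Meg3 by 1.42 ± 0.36. Of 7 tested small nucleolar RNAs, which guide modification of ribosomal RNA in the nucleolus, 6 were lower and none higher (1 higher after quantile scaling or without homogenate mimic 2), with a median log2 difference of -1.48. Snord22 had log2 levels of 16.67, 16.76, 16.51, 15.83 and 16.79 in homogenate mimic 1 to 5 and of 12.78, 12.27, 12.76, 12.91 and 11.23 in synaptoneurosome mimic 1 to 5. It fell by 4.12 ± 0.41 on the log2 scale, a 17.4-fold change, which was exceeded among all tested genes only by that of Rgs5. Snord33 fell by 2.60 ± 0.43 and Snora30 by 1.75 ± 0.20. The mean of Snora30 in synaptoneurosome mimic, 4.67, lay below the limit of the filter on dim genes (4.97), so it entered the test through the homogenate arrays. Small nucleolar RNAs are far shorter than messenger RNAs, and recovery of short RNA can differ between a spin column and precipitation. The part of the extraction method in these values cannot be told apart from that of the fraction.

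Zinc finger protein genes, most of them nuclear regulators of transcription, had a median log2 difference of -0.22. Of 304 tested, 152 (50%) were lower and 4 (1.32%) higher, beside 30.8% and 11% over all genes. That count was sensitive to scaling: quantile scaling gave 62 lower and 15 higher, and with the median of tested genes set to 0 there were 44 lower and 41 higher. Without synaptoneurosome mimic 5, 131 were lower and 14 higher. Zfp366 fell by 1.23 and Zfp347 by 1.02, while Zfp106 rose by 0.86.

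Of 24 histone and chromatin genes, 11 (45.8%) were lower and 2 (8.33%) higher, beside 30.8% and 11% over all genes. The replicate block called 10 and 1 of them, and quantile scaling 5 and 1. Their median was -0.25, or -0.15 without synaptoneurosome mimic 5, none fell 2-fold, and the higher count fell to 0 or 1 when any of 13 single arrays was left out. Of 49 mitochondrial carriers of the inner membrane, 20 (40.8%) were lower and 3 (6.12%) higher, beside 30.8% and 11% over all genes. Of the 3, 1 lay below the limit of the filter on dim genes in homogenate, so it entered the test through the synaptoneurosome arrays. Without synaptoneurosome mimic 4, 1 carrier was higher. The carriers' median of -0.17 turned positive with the median of tested genes set to 0, when 12 were lower and 12 higher. With the median of tested genes set to 0, the number of higher genes was larger in most groups, reaching 14 of 23 ionotropic glutamate receptors, 17 of 41 monoamine and peptide receptors and 43 of 69 potassium channels, and 32 of the 72 mitochondrial ribosomal proteins and 38 of the 70 oxidative phosphorylation genes were lower.

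Several of the largest falls were those of blood vessel markers. Of 23 endothelial markers, 20 were lower, none was higher, 15 fell at least 2-fold, and the median log2 difference was -1.38. In both fractions, 21 of the 23 lay above the limit of the filter on dim genes, and none was below it in homogenate. The mean level of the list was 8.34 to 8.62 on the log2 scale in homogenate arrays and 6.69 to 7.18 in synaptoneurosome arrays. Adgrf5, an adhesion G protein-coupled receptor of endothelium, had log2 levels of 10.39, 10.31, 10.13, 10.26 and 10.09 in homogenate mimic 1 to 5 and of 6.30, 6.33, 6.24, 6.07 and 6.23 in synaptoneurosome mimic 1 to 5. The arrays within each fraction were close together, and Adgrf5 fell by 4.00 ± 0.12 (adjusted p = 5.8e-14).

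Flt1, a VEGF receptor, fell by 3.54 ± 0.09, while its other probe set differed by -0.72. Adgrl4, another endothelial adhesion receptor, fell by 2.95 ± 0.13, Itm2a by 2.75 ± 0.40, the junction protein Pecam1 by 2.48 ± 0.12 and the efflux pump Abcb1a of the blood-brain barrier by 2.40 ± 0.12. Cldn5, the main claudin of that barrier, fell by 1.27 ± 0.12, from 7.31 to 7.80 in homogenate to 6.18 to 6.49 in synaptoneurosomes. Cyyr1, which was not on the list, fell by 2.77 ± 0.14. The counts of this list were 20 lower after quantile scaling and 23 without synaptoneurosome mimic 5.

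Mural cells that wrap vessels were lower in part. Of 12 tested markers of pericytes and smooth muscle, 6 were lower and 1 higher, with a median log2 difference of -0.32. Rgs5, a regulator of G protein signalling that marks pericytes, had the largest fall of any gene. Its log2 levels were 12.42, 12.44, 12.79, 12.32 and 12.14 in homogenate mimic 1 to 5 and 7.65, 8.04, 8.42, 7.95 and 7.12 in synaptoneurosome mimic 1 to 5, so the lowest homogenate array lay more than 3 log2 units above the highest synaptoneurosome array. The difference was -4.59 ± 0.26 (adjusted p = 5.9e-10), a 24.0-fold fall. Vtn, the pericyte transcript of vitronectin, fell by 1.66 ± 0.42, the contractile actin Acta2 by 1.12 and the receptor Pdgfrb by 0.54 ± 0.11. The 1 higher gene, Cspg4, is also a marker of oligodendrocyte precursors (0.38), and it no longer passed when any of homogenate mimic 4, synaptoneurosome mimic 4 or synaptoneurosome mimic 5 was left out.

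Astrocyte markers were higher, not lower. Of 24 tested, 13 were higher and none lower, with a median log2 difference of 0.40, and the mean level of the list was 11.55 to 11.80 in homogenate arrays and 11.85 to 12.23 in synaptoneurosome arrays. Kcnj10, the inward rectifier Kir4.1 of astrocytic processes, had log2 levels from 10.78 to 11.10 in homogenate and from 11.44 to 12.21 in synaptoneurosomes, a rise of 0.98 ± 0.19 (adjusted p = 0.00043). Slc1a3, the glutamate transporter GLAST, rose by 0.59 ± 0.13, and Gfap, an astrocytic intermediate filament, by 0.91 ± 0.28. The fifth synaptoneurosome array was the lowest of its group for Gfap, at 13.22 against 14.21 to 14.91. Aqp4, the water channel of astrocytic endfeet on vessels, was near the threshold at 0.31 ± 0.12 (adjusted p = 0.039) and lost its call with array medians set to 0 and when any 1 of 8 mimic arrays was left out, the exceptions being homogenate mimic 4 and synaptoneurosome mimic 1.

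Microglial markers had 5 higher and none lower of 19, or 8 higher with the replicate block, with a median of 0.24 on the log2 scale, or 0.16 without synaptoneurosome mimic 5. Some of the higher markers were dim, with homogenate means of 5.33 and 5.54, in the range where dim probe sets tended upward. The count was 3 when homogenate mimic 1, 2 or 3 or synaptoneurosome mimic 4 was left out. Without the 3 arrays that stood apart, 6 were higher and 1 lower. Itgam, the integrin CD11b, rose by 1.03 ± 0.30, but Cx3cr1, the fractalkine receptor, differed by -0.02 ± 0.24. Myelin and mature oligodendrocyte markers had 5 lower (22.7%) and 1 higher (4.55%) of 22, beside 30.8% and 11% over all genes. These counts were 8 and 2 with the replicate block and 3 and 1 after quantile scaling. Mog, a protein of the outer myelin surface, fell by 1.04 ± 0.28, Bcas1 rose by 1.17 ± 0.29, and Mbp, whose messenger RNA is transported into the myelin sheath, differed by 0.13 ± 0.19 (adjusted p = 0.6). Of 14 markers of oligodendrocyte precursors, 4 were higher and 1 lower, with Tnr, a matrix glycoprotein, at 1.23 and the transcription factor Olig2 at -0.40, and 2 were lower without synaptoneurosome mimic 1. The median of these precursor markers was 0.20, or 0.03 without synaptoneurosome mimic 5. Of 9 blood and leukocyte markers 2 were higher and none lower, or 2 and 1 with the replicate block, and 1 was higher when any 1 of 7 mimic arrays was left out. The higher ones included a dim marker with a homogenate mean of 5.33. Of 18 markers of fibroblasts and meninges 1 was higher and 1 lower, or 1 and 4 with the replicate block. The medians of these last lists, -0.02 and -0.07, turned positive with the median of tested genes set to 0, and the second was -0.12 without synaptoneurosome mimic 5.

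Neuronal cell types were described by markers of interneurons and of hippocampal principal cells. Of 23 interneuron markers, 7 (30.4%) were lower and 2 (8.7%) higher, shares near those over all genes (30.8% and 11%), or 4 and 2 after quantile scaling, and the median log2 difference of -0.10 turned positive after quantile scaling and with the median of tested genes set to 0 and was -0.25 without synaptoneurosome mimic 5. The GABA-synthesising enzymes Gad1 and Gad2 fell by 0.94 ± 0.29 and 0.95 ± 0.30. Gad1 had log2 levels of 13.37, 13.55, 13.65, 13.51 and 13.23 in homogenate mimic 1 to 5 and of 12.27, 12.20, 12.44, 12.26 and 13.45 in synaptoneurosome mimic 1 to 5. In the fifth synaptoneurosome array Gad1 was within the homogenate range, and Gad2 lost its call when synaptoneurosome mimic 4 was left out (adjusted p = 0.05). Reln, the secreted matrix protein reelin, rose by 1.24 ± 0.25, and Erbb4, a neuregulin receptor, by 0.78.

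Of 24 markers of pyramidal and granule cells, 9 (37.5%) were lower and 2 (8.33%) higher, near the shares over all genes (30.8% and 11%). The replicate block called 10 lower and 4 higher. The median of -0.08 turned positive with the median of tested genes set to 0. Without synaptoneurosome mimic 5 the median was -0.34, with 9 lower and 2 higher. Pcp4, a small calmodulin regulator, fell by 2.18 ± 0.45, although its other probe set differed by -0.74. Neurod6, a transcription factor of pyramidal cells, fell by 1.52 ± 0.22, and Calb1, a calcium buffer of granule and CA1 cells, by 1.46 ± 0.34. Prox1, the transcription factor of granule cells, fell by 0.71 ± 0.19, but did not pass with the median of tested genes set to 0.

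Among markers of the ventricle lining, the largest spread lay between replicates. Ttr, the transthyretin of choroid plexus, was at 6.27, 5.91, 5.97, 5.98 and 13.08 in homogenate mimic 1 to 5 and at 6.08, 5.94, 6.15, 5.99 and 13.51 in synaptoneurosome mimic 1 to 5 on the log2 scale. Replicate 5 was thus high in both fractions, and the other 8 arrays were near 6. Of 13 tested markers of choroid plexus and ependyma, none was higher and 1 was lower, whereas the replicate block called 2 higher and 1 lower. The lower gene lost its call without homogenate mimic 3 or 5 and after quantile scaling. The median of 0.09 turned negative without synaptoneurosome mimic 5, and the mean level of the list spanned 5.32 to 6.67 in homogenate and 5.42 to 6.73 in synaptoneurosomes. How far choroid plexus tissue contributed to the other values of replicate 5 was not tested.

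Immediate early genes, which are transcribed after neuronal activity, were lower in 9 (37.5%) and higher in 2 (8.33%) of 24 cases, near the shares over all genes. The median log2 difference was -0.25, and 5 were lower and 2 higher after quantile scaling. The transcription factor genes Egr1 and Jun both fell by 1.24, with standard errors of 0.24 and 0.17. The 2 that rose, Arc and Ptgs2, encode an effector protein of synapses and the cyclooxygenase COX-2, and Ptgs2 rose by 1.32 ± 0.27. Of 15 genes of the glucocorticoid and stress response, 4 (26.7%) were lower and 1 (6.67%) higher, beside 30.8% and 11% over all genes. The replicate block called 7 lower and 1 higher. Their median of -0.11 turned positive after quantile scaling and with the median of tested genes set to 0. Sgk1, a kinase induced by glucocorticoids, fell by 0.74 ± 0.10, while Fkbp5, a co-chaperone of their receptor, differed by -0.18 ± 0.09 and did not pass (adjusted p = 0.14 here and 0.041 with the replicate block).

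RNA-binding proteins of transport granules and local translation were lower in 18 (50%) and higher in 2 (5.56%) of 36 cases. The shares over all genes were 30.8% and 11%, and the list's median log2 difference was -0.28. Khdrbs1, the splicing and transport factor Sam68, fell by 0.94 ± 0.10, Rbfox3, the neuronal splicing factor NeuN, by 0.95, Eif4e, the cap-binding protein, by 0.83, and Stau1, a double-stranded RNA-binding protein of dendritic granules, by 0.40 ± 0.07. Stau1 did not pass with the median of tested genes set to 0. The 2 higher genes, Igf2bp3 (0.19) and Igf2bp1 (0.15), are dim, and their homogenate means of 4.91 lie below the limit of the filter on dim genes, so they entered the test through the synaptoneurosome arrays. Igf2bp1 lost its call with the replicate block, and the higher count was 1 when any of homogenate mimic 2 or 4 or synaptoneurosome mimic 2, 3 or 4 was left out. Fmr1, which encodes the translational repressor FMRP, was at -0.17 ± 0.06 (adjusted p = 0.033). After quantile scaling Fmr1 was at 0.02 and did not pass, and with the median of tested genes set to 0 it was at 0.05 and did not pass either.

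The injected mimic directs attention to the microRNA pathway itself. Of 20 genes of microRNA processing and silencing, 5 (25%) were lower and none higher, beside 30.8% and 11% over all genes. After quantile scaling 2 were lower and 1 higher. The median log2 difference of -0.15 turned positive with the median of tested genes set to 0. Cnot7, a deadenylase of the silencing complex, fell by 0.62 ± 0.11. Dicer1, the enzyme that cuts precursors to mature microRNAs, had log2 levels from 10.52 to 10.71 in synaptoneurosome mimic 1 to 4, 9.70 in the fifth and 9.93 to 10.03 in homogenate. Its difference of 0.47 ± 0.20 did not pass (adjusted p = 0.068).

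Described targets of the miR-17 family went both ways. Of 41 tested, 14 (34.1%) were lower and 7 (17.1%) higher, with a median log2 difference of -0.10 beside -0.08 for all genes (-0.02 without synaptoneurosome mimic 5), and it turned positive with the median of tested genes set to 0. After quantile scaling 5 were lower and 6 higher. Sqstm1, an autophagy receptor, fell by 1.11 ± 0.12, with 9.86 to 10.40 in homogenate and 8.91 to 9.12 in synaptoneurosomes. Epha4, an ephrin receptor, rose by 0.95 ± 0.23 and Ccnd1, cyclin D1, by 0.90 ± 0.13. Cdkn1a, the cell cycle inhibitor p21, was dim in both fractions and differed by 0.08 ± 0.07. In control rats 12 of the 41 were lower and 5 higher. These counts compare fractions, not treatments.

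Of 382 precursor genes of microRNAs, 176 passed the filter on dim genes. Of these, 28 (15.9%) were lower and 21 (11.9%) higher, beside 30.8% and 11% over all genes. The higher count is a description, since 4 of the 21 lay below the filter's limit in homogenate of mimic rats. Of the 176, 8 were below it in homogenate only. Of the 158 above it in both fractions, 17 were higher. The median log2 difference of the 176 was 0.05 and turned negative with array medians set to 0. These probe sets can read the primary transcript, the hairpin or the host gene, and they do not report the mature microRNA. The RefSeq table held 168 of the 176 precursors. Mature sequences of 3 of the 4 precursors with the largest falls and of the 2 with the largest rises are shown with their seeds (bases 2 to 8) in capitals, and none shares the seed of miR-17-5p.
rno-miR-219a-5p: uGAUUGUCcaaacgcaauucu
rno-miR-219a-2-3p: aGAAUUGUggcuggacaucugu
rno-miR-29c-3p: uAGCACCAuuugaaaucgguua
rno-miR-3084a-3p: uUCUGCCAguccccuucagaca
rno-miR-299a-5p: uGGUUUACcgucccacauacau
rno-miR-376a-3p: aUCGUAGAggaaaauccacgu
The precursor Mir219-2 gives both miR-219a products, at chr3:33516561-33516581 and chr3:33516517-33516538 on the minus strand (GRCr8), and miR-219 is known for promoting oligodendrocyte maturation. It had log2 levels of 7.51, 7.37, 7.26, 7.47 and 7.99 in homogenate mimic 1 to 5 and of 5.28, 5.38, 5.73, 5.19 and 5.24 in synaptoneurosome mimic 1 to 5. The fractions did not overlap, and the fall was 2.16 ± 0.22 (adjusted p = 5.8e-07).

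Mir124-1, a precursor of the neuronal microRNA miR-124, fell by 1.72 ± 0.23 and is named here without a sequence. Mir3084a fell by 1.60 ± 0.21 and Mir29c by 1.58 ± 0.21, with -0.55 in the other probe set of Mir29c. The sequence shown for Mir3084a lies at chr19:55718541-55718562 on the minus strand and that for Mir29c at chr13:109099412-109099433 on the plus strand. The 2 precursors with the largest rises, Mir299 and Mir376a, lie on chromosome 6, with the sequences shown at chr6:134545075-134545096 and chr6:134559421-134559441 on the plus strand. Mir299 rose by 0.73 ± 0.10, from 5.17 to 5.72 in homogenate to 5.98 to 6.31 in synaptoneurosomes, and Mir376a rose by 0.65 ± 0.16. Both levels lie in the range where dim probe sets tended upward.

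Synaptoneurosome mimic 5 differed from the other 4 arrays in a patterned way. Against the homogenate mean of each gene, the median of the endoplasmic reticulum list was 1.21 log2 units in this array and -0.32, -0.17, -0.06 and -0.01 in synaptoneurosome mimic 1 to 4. The ionotropic glutamate receptors had medians of 0.24, 0.08, 0.31 and 0.43 in the first 4 and 1.29 in the fifth, and GABA receptors 0.09, 0.08, 0.15 and 0.28 against 1.11. Interneuron markers were between -0.32 and -0.23 in the first 4 and at 0.69 in the fifth. Principal neuron markers were between -0.38 and -0.19 in the first 4 and at 0.465 in the fifth. Why these groups were high together in this array was not tested.

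Postsynaptic scaffolds went the other way in this array, with 0.34, 0.26, 0.27 and 0.26 in synaptoneurosome mimic 1 to 4 and -0.32 in the fifth, and the active zone list had 0.01 to 0.19 against -0.35. Endothelial markers were at -1.28 in this array, the least low value, against -1.58 to -1.32 in the other 4, and splicing factors were at -1.03, within their range of -1.04 to -0.87. Without replicate 5 of both mimic groups, endothelial markers had 23 lower of 23, proteasome genes 30 lower of 31 and sodium, calcium and HCN channels 13 higher of 15. Technical features of this array were not tested.

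**Figure D4:**
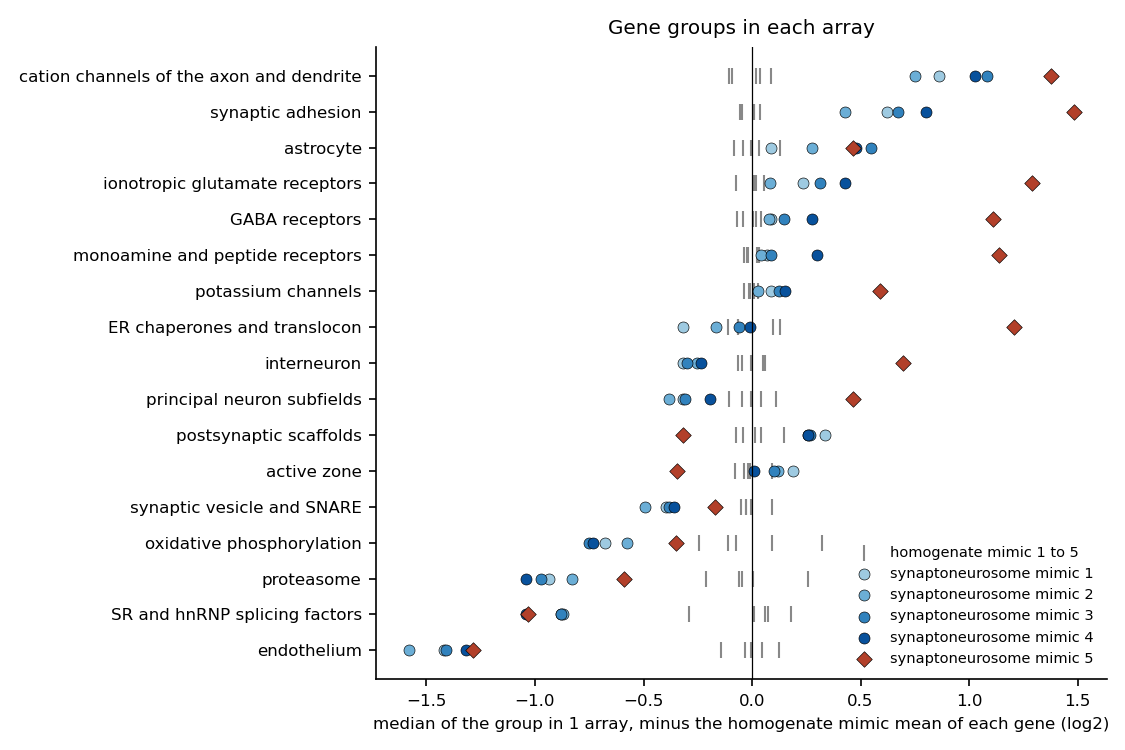
Median over the tested members of 17 gene groups in each mimic array, after subtracting each gene's homogenate mimic mean (log2 units), with grey ticks for homogenate mimic 1 to 5, circles for synaptoneurosome mimic 1 to 4 and a red diamond for synaptoneurosome mimic 5. The diamond lies right of the circles for receptors and the endoplasmic reticulum, left of them for scaffolds and the active zone, just right of them for endothelium and among them for splicing factors.

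Genes that rose strongly were long. The median genomic span from RefSeq was 86.0 kb for the genes at least 2-fold higher (185 of 198 had a span), 20.4 kb for genes that did not pass and 13.9 kb for genes at least 2-fold lower. Across the 14827 genes with a span, Spearman's rho was 0.095 with the log2 difference and 0.31 with the mean level, as a description in which genes are not independent. Genes higher by under 2-fold had a median span of 29.3 kb and genes lower by under 2-fold 20.8 kb. The classes also differed in level, with medians of 11.64 for genes at least 2-fold higher, 7.01 for those not passed and 9.72 for those at least 2-fold lower. Many long genes encode adhesion proteins and channels, and the parts of length, level and function were not told apart.

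Control rats, compared in the same way, served to ask whether any fraction difference was particular to mimic rats. In control rats 1818 genes (11.8%) were higher and 4332 (28%) lower in synaptoneurosomes. Pearson's r between the differences of mimic and of control rats was 0.91 across 15465 genes, a description of arrays that share extraction methods and platform but no sample. Of the 1697 genes higher in mimic rats, 1146 (67.5%) were also higher in control rats, which is 63% of the genes higher in control rats. Of the 4756 lower genes, 3808 (80.1%) were lower in control rats, which is 87.9% of those lower there. No gene passed in opposite directions. Of the 567 genes with at least 2-fold difference in mimic rats, 531 passed in the same direction in control rats.

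The test of the difference itself, the fraction difference in mimic rats minus that in control rats, called 0 of 15465 genes (0%, limma, smallest adjusted p = 0.998), with 243 genes at an unadjusted p below 0.05. The replicate block, quantile scaling and each array left out in turn also gave 0 calls. The median standard error of this difference was 0.156 log2 units, and the largest difference of any gene, 1.28, was not called. The smallest unadjusted p on the higher side in limma belonged to LOC102552186, with a difference of 0.40 ± 0.10, and on the lower side to Mt1f, a metallothionein gene, with -0.78 ± 0.21. Both had an adjusted p of 0.998. Snord22 had fraction differences of -4.12 in mimic and -4.81 in control rats, Rgs5 of -4.59 and -4.54, Lrp1b of 2.35 and 2.15, and Adgrf5 of -4.00 and -3.99. The median log2 difference was -1.38 and -1.27 for endothelial markers, 0.85 and 0.95 for synaptic adhesion, -0.96 and -0.83 for splicing factors and -0.84 and -0.54 for the proteasome in mimic and control rats.

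**Figure D5:**
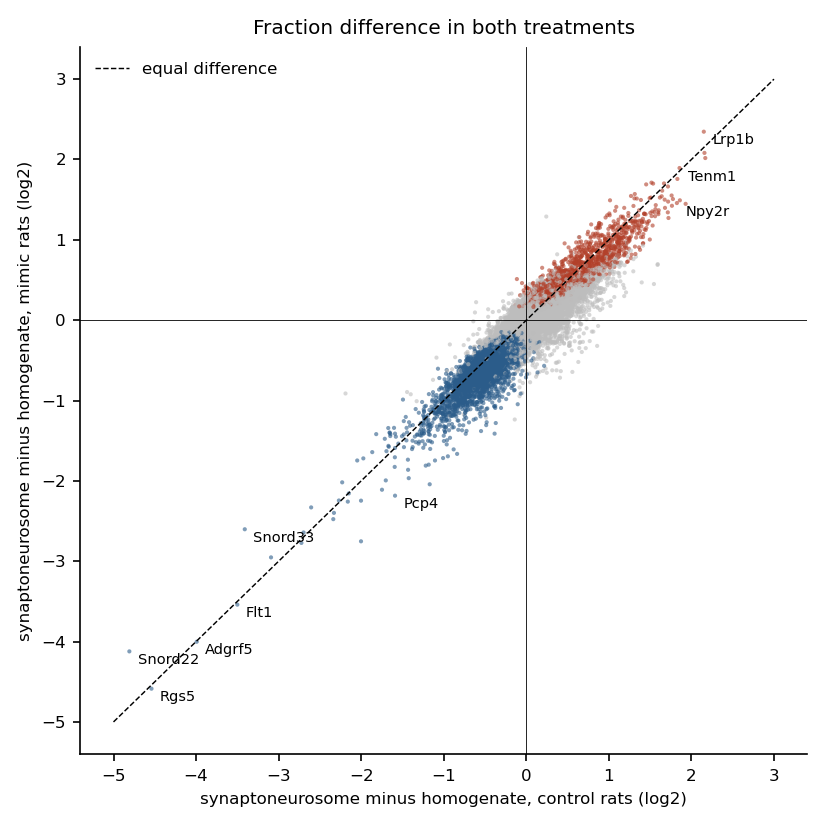
Log2 difference of synaptoneurosome minus homogenate in mimic rats (vertical) against the same in control rats (horizontal) for 15465 genes, coloured by the test in mimic rats (red higher, blue lower, grey not passed), with a dashed line of equal difference. Points lie along the line (r = 0.91), with Rgs5, Snord22 and Adgrf5 near or beyond -4 in both treatments.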

How the data were processed

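Expression was measured on microarrays in 20 samples, 5 per group, labelled from 100 ng of RNA. The deposited values are log2 signals per probe set, made by the authors. The submitters' processing notes name RMA and the Transcriptome Analysis Console (versions not given in the sources used here). They ranged from 2.11 to 19.93, array medians from 5.11 to 5.26, and no depth exists for arrays, whose number limits the precision. Scanner files were not used here.

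Probe sets with 1 gene symbol were kept (505 had several and 44891 none), and 1182 genes had more than 1 such probe set, of which the brightest over all 20 arrays was used. Genes in the dimmest 30% by mean over all 20 arrays (log2 level below 4.97) were left out. limma 3.58.1 in R 4.3.3 fitted 4 group means over 20 arrays, leaving 16 residual degrees of freedom, and p-values were adjusted by Benjamini-Hochberg over 15465 genes. The script was tested on simulated data. Homogenate and synaptoneurosome replicates with the same number were treated as pairs in a further fit, since their deviations correlated by over 0.1 in every pair (0.102 to 0.354 in mimic rats). Fold changes are on the log2 scale of the deposited values. Further settings covered scaling, filters, array weights, probe-set means, a minimum difference and each array left out in turn. A further 3 were chosen after seeing the data: the median of tested genes set to 0, leaving out replicate 5 of both mimic groups, and quantile scaling with the block.

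The gene lists and the members were chosen with earlier results of these data known. Genes named are the 12 largest rises and falls without overlap, and from each list the first 2 members, up to 4 passing members with the largest difference and up to 2 that went against the list's majority. For the difference between treatments they are the 2 genes in each direction with the smallest p. Not every gene this rule allows is printed. Tables and figures were made with Python 3.11.15, pandas 2.3.3 and matplotlib 3.10.9.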

Additional observations from a re-analysis of the deposited data

Results flagged for a closer look

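An array was singled out where its gap to the nearest other array, divided by the range of its group of 5, exceeded Dixon's critical value of 0.71. This held in 51 of 366 groups of arrays checked, where chance gives about 1 in 20, and 34 of the 51 concerned synaptoneurosome mimic 5 and 8 homogenate mimic 5. The members of a group share arrays, so these are not independent.

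Synaptoneurosome mimic 5 was the highest array for the following genes, with these gap ratios: Baiap2 0.823, Eno2 0.719, Gad1 0.808, Gria1 0.758, Grm5 0.738, Htr1a 0.779, Ina 0.72, Kcnip4 0.764, Nlgn1 0.727, Rab3a 0.833 and Ttr 0.972. It was the lowest array for Clk1 with a gap ratio of 0.811, Cplx2 0.729, Dicer1 0.812, Dlg4 0.803, Homer2 0.72, Mir124-1 0.819, Mir3084a 0.819, Shank1 0.733, Snord33 0.782, Srsf5 0.802, Wsb1 0.728 and Zfp106 0.786. Among list medians it was the highest for ionotropic glutamate receptors (gap ratio 0.714), GABA receptors (0.809), monoamine and peptide receptors (0.766), oligodendrocyte precursors (0.945), interneurons (0.919), principal neurons (0.779), choroid plexus and ependyma (0.749), the endoplasmic reticulum (0.798) and potassium channels (0.773). It was the lowest for postsynaptic scaffolds (0.878) and described miR-17 targets (0.719).

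Homogenate mimic 5 was the highest array for Cspg4 (gap ratio 0.812), Hspa5 (0.792), Kif5c (0.774), Tnr (0.75), Ttr (0.95) and Zfp106 (0.81), and the lowest for Rsrp1 (0.791) and Srsf5 (0.711). Homogenate mimic 4 was the highest for Psmc2 (0.828) and Sv2c (0.879) and the lowest for Snord33 (0.714). Single cases were homogenate mimic 1, lowest for Scn2a (0.917), homogenate mimic 2, highest for Dicer1 (0.8), synaptoneurosome mimic 1, lowest for the median of fibroblast and meninges markers (0.791), synaptoneurosome mimic 3, highest for Acta2 (0.727), and synaptoneurosome mimic 4, highest for Nrgn (0.765) and Mt1f (0.711).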

How the results depend on the processing

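Of 146 named genes that passed, 124 kept their call and direction in all alternatives other than the test against 0.5 log2 units, under which 74 kept it. The replicate block, which pairs arrays by number, called 6980 genes, 1872 higher and 5108 lower, or 6388 in mimic arrays alone, and of the named genes that passed only Igf2bp1 lost its call under the block over 20 arrays, while Fkbp5 and Sec61a1 gained one. Leaving out 1 array at a time gave 5652 to 6771 calls, with 1356 to 1852 higher, 4247 to 4919 lower, 165 to 246 at least 2-fold higher and 313 to 438 at least 2-fold lower.

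Higher genes numbered 4110 with no filter on dim genes, 1028 with the lowest 50% left out, 1069 with array medians set to 0, 2974 with array weights, 121 against 0.5 log2 units and 5118 with the median of tested genes set to 0. Lower genes numbered 2982 after quantile scaling, 406 against 0.5 and 2295 with the median of tested genes set to 0, and calls in all 527 against 0.5. Genes at least 2-fold higher numbered 104 against 0.5 and 419 with the median of tested genes set to 0, and those at least 2-fold lower 241 after quantile scaling, 243 with quantile scaling and the replicate block and 158 with the median of tested genes set to 0. With no filter on dim genes, lower genes numbered 4851 and the median log2 difference was 0.05. The causes of the changed counts under the filters, the scalings and the array weights were not tested. Fmr1 turned to 0.02045 after quantile scaling, with and without the block, and to 0.052 with the median of tested genes set to 0. Quantile scaling ended the calls of Olig2, Pcdhgb1, Zfp106, Rpl24, Rpl27, Srsf1, Pclo, Igf2bp1 and Igf2bp3, and leaving out replicate 5 of both mimic groups those of Aqp4, Cspg4, Erbb4, Fmr1, Npy2r, Olig2, Rpl24 and Sv2c. Of 1656 recomputed list medians, 78 moved by more than 1 SD of the synaptoneurosome arrays. The difference between treatments gave 0 calls in all alternatives that include control arrays, and it cannot be fitted in mimic arrays alone.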

Other observations

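Probe sets without a single gene symbol took no part in the comparisons above. Of these 45396 probe sets, 5281 were higher and 2860 lower in synaptoneurosomes of mimic rats, with 140 and 563 at least 2-fold, and the median log2 difference was 0.088. The 23446 probe sets with 1 symbol, treated the same way without a filter on dim values, had 3263 higher and 4594 lower, with 206 and 389 at least 2-fold and a median of 0.052. The median level of the unnamed probe sets was 4.94 on the log2 scale, against 6.14 for the named ones.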
